A study of Mus musculus with 6 samples.

Results

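The VEGF and angiopoietin signalling genes are 10 genes of vessel growth and vessel upkeep, picked by gene name from the 54232 genes of the deposited count table. They comprise 5 ligand genes (Vegfa, Vegfb, Vegfc, Angpt1 and Angpt2) and 5 receptor genes (Flt1, Kdr, Flt4, Tek and Tie1), and all 10 had enough reads to be tested. Their transcripts were measured by stranded mRNA sequencing in tibialis anterior, a fast-twitch muscle at the front of the lower hind leg. The mutant group (D51) comprises 3 C57BL6 mice, 1 month old, that carry a deletion of exon 51 of Dmd, the dystrophin gene. The control group (WT) comprises 3 wild-type mice of the same strain and age. Within a genotype the 3 libraries are labelled as biological replicates and are named here D51 4, D51 5, D51 6, WT 1, WT 2 and WT 3, following their titles. The p-values below weigh the difference between genotypes against the spread between these libraries.

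VEGF ligands are secreted growth factors that bind receptor tyrosine kinases on endothelial cells. Kdr (VEGFR2) carries most of the growth signal, Flt1 (VEGFR1) binds VEGF-A and VEGF-B tightly and also exists as a soluble decoy, and Flt4 (VEGFR3) is the receptor of VEGF-C on lymphatic endothelium. Angiopoietins act on the endothelial receptor Tek (Tie2): Angpt1 activates it and keeps vessels quiet, while Angpt2, released by endothelium, can block it, and Tie1 is an orphan relative that modulates Tek. In skeletal muscle the fibres themselves make VEGF-A, and the capillaries that run along them carry the receptors.

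Counts assigned to genes came to 20105817, 19262344 and 18571038 in D51 4 to 6 and to 20136164, 21020353 and 15681945 in WT 1 to 3. Dmd itself was at 47.7, 46.4 and 51.1 CPM (read counts brought to a common library size, with TMM factors that balance the bulk of genes) in D51 muscle, against 235, 249 and 266 CPM in WT muscle, which checks the genotype labels at the level of the whole transcript. Mitochondrial genes took 13.4% to 14.8% of counts in D51 and 19.4% to 21.05% in WT, and the TMM factors were 1.04 to 1.19 in D51 and 0.869 to 0.898 in WT. With mitochondrial genes left out, or with RLE size factors as another scaling, each of the 10 genes kept its call or lack of one. Beyond these fits and the scalings given below, the part of the mitochondrial share and of the factors in the results was not tested. Fast muscle fibre markers were abundant in every library, with a summed level of 85498 to 117155 CPM in D51 and 127750 to 131086 CPM in WT. Of these 10 markers 0 were called, while 9 had a log2 fold change (D51 over WT) below 0. Their median was -0.38, against -0.01 for all genes tested. All 19 endothelial markers were tested, and none was at 0. In whole muscle, fewer cells of a type and less RNA per cell cannot be told apart.

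Of the 10 genes, 4 were lower in D51 muscle and 0 were higher (quasi-likelihood test of edgeR, p adjusted over all 14335 genes tested, called under 0.05). Over all genes tested, 28% were called, 11.9% lower and 16.1% higher. The called genes were the receptors Flt1, Tek and Tie1 and the ligand Vegfb. Log2 fold changes (D51 over WT) were below 0 for 5 of 5 receptors, with a median of -0.59, and for 4 of 5 ligands, with a median of -0.30. The median of all genes tested was -0.01. In 5 of the 10 genes every D51 library lay below every WT library, which held for 21.7% of all genes tested. In 0 every D51 library lay above, against 23.8% of all genes, and groups without overlap in either direction made up 45.5% of all genes.

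**Figure D1:**
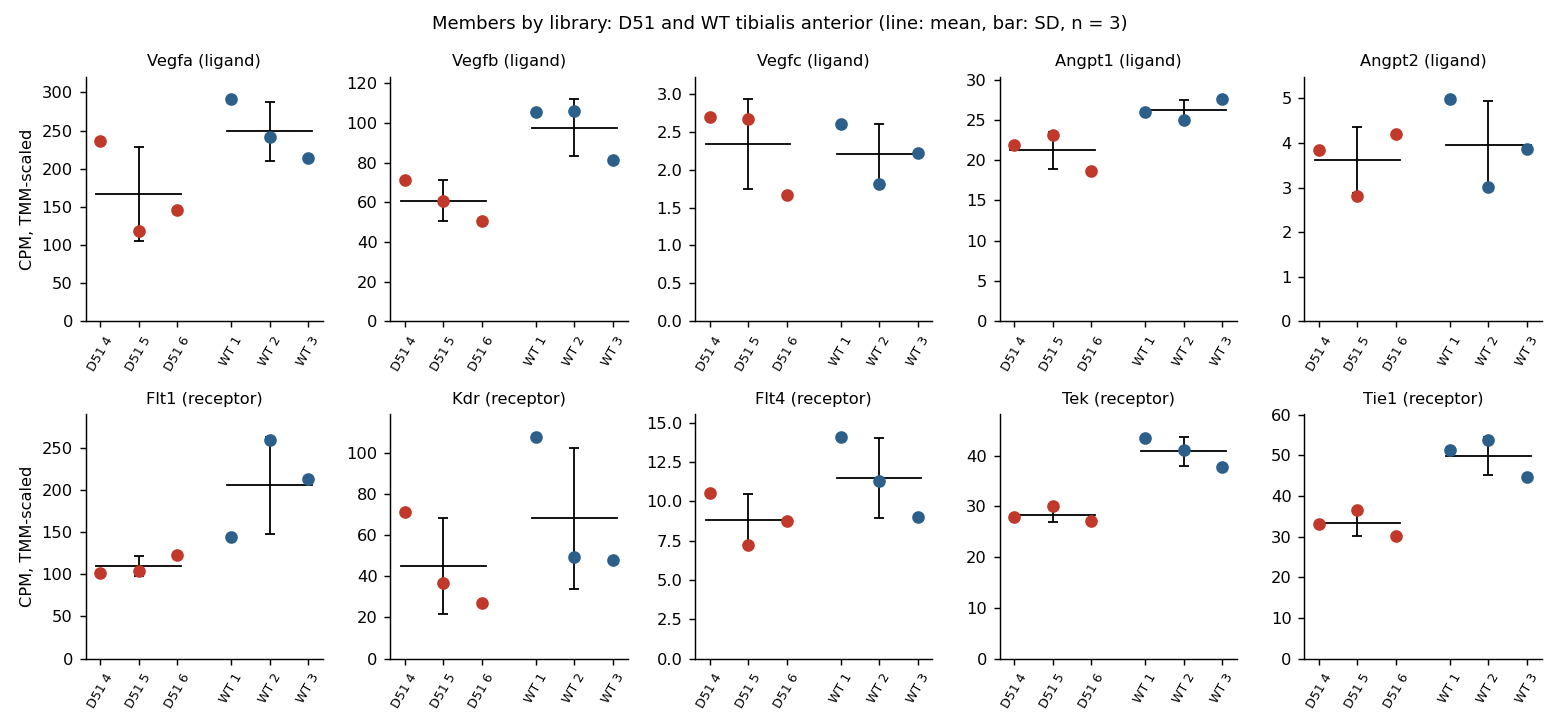
TMM-scaled CPM of each gene (vertical axis, from 0) in the 3 D51 and 3 WT libraries, ligands in the upper row and receptors in the lower, with the mean as a line and the SD as a bar. The groups do not overlap for Vegfb, Angpt1, Flt1, Tek and Tie1, while Kdr is highest in D51 4 (71.3 CPM) within D51 and in WT 1 (108 CPM) within WT.

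The Tie receptors had closely grouped libraries in each genotype. Tek, the angiopoietin receptor (chromosome 4, 94739289 to 94874976 in GRCm38, forward strand), was at 27.9, 30.0 and 27.1 CPM in D51 and at 43.5, 41.1 and 37.8 CPM in WT. The highest D51 library lay below the lowest WT library. The group means were 28.4 ± 1.496 CPM in D51 and 40.8 ± 2.88 CPM in WT (SD, n = 3 each), a log2 fold change of -0.53 (SE 0.0918, edgeR adjusted p = 0.00569). Tie1, its orphan relative (chromosome 4, 118471191 to 118490061, reverse strand), was at 33.1, 36.5 and 30.2 CPM in D51 and at 51.3, 53.8 and 44.7 CPM in WT. Here too the groups did not overlap, with means of 33.3 ± 3.18 and 49.9 ± 4.71 CPM in D51 and WT. The log2 fold change of Tie1 was -0.59 (SE 0.109, edgeR adjusted p = 0.00707). Both calls held with any single library left out. With libraries scaled to their size alone, a scaling that shifts the median of all genes to 0.34, both calls ended (-0.17 for Tek and -0.23 for Tie1).

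Flt1 showed the largest change among the 10 genes under TMM scaling. This VEGF-A and VEGF-B receptor (chromosome 5, 147561604 to 147726011, reverse strand) was at 101, 104 and 123 CPM in D51 and at 144, 259 and 214 CPM in WT. The D51 libraries were close together and all lay below WT 1, the lowest WT library. The means were 110 ± 11.7 CPM in D51 and 205 ± 57.8 CPM in WT (SD, n = 3 each), a log2 fold change of -0.91 (95% interval -1.37 to -0.45, edgeR adjusted p = 0.0130). The call ended without D51 5 (-0.86, adjusted p = 0.0512). It remained under library-size scaling (-0.56, adjusted p = 0.0387), the single call among the 10 genes to do so. Counts over the whole gene sum the membrane-bound and soluble forms of Flt1, which these values cannot separate.

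Kdr, the main signalling receptor (chromosome 5, 75932827 to 75978458, reverse strand), varied more between libraries of 1 genotype than any other of the 10 genes. It was at 71.3, 36.6 and 27.0 CPM in D51 and at 108, 49.1 and 47.8 CPM in WT. D51 4 and WT 1 stood high in their groups, and the highest library was 2.64 times the lowest in D51 and 2.26 times in WT. The log2 fold change was -0.60 with a 95% interval of -1.56 to 0.35, and the gene was not called (edgeR adjusted p = 0.311). It was -1.104 without D51 4, -0.34 without D51 6, -0.11 without WT 1 and -0.24 under library-size scaling, and was called in none of these. With both D51 4 and WT 1 left out, an alternative added after seeing the data, it was -0.61 with an adjusted p of 0.0468.

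Flt4, the VEGF-C receptor (chromosome 11, 49609263 to 49652739, forward strand), was at 10.5, 7.22 and 8.72 CPM in D51 and at 14.1, 11.3 and 9.02 CPM in WT. Only D51 4 reached into the WT range. The log2 fold change was -0.38 (95% interval -0.84 to 0.07, edgeR adjusted p = 0.185). It was -0.21 without WT 1, -0.24 without D51 5 and -0.03 under library-size scaling, and was called in none of these.

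Vegfb, a VEGF-family ligand of Flt1 (chromosome 19, 6982473 to 6987651, reverse strand), was the single ligand called. It was at 71.4, 60.7 and 50.4 CPM in D51 and at 106, 106 and 81.3 CPM in WT, with no overlap between the groups. The means were 60.9 ± 10.5 CPM in D51 and 97.7 ± 14.2 CPM in WT (SD, n = 3 each), a log2 fold change of -0.68 (SE 0.154, edgeR adjusted p = 0.0143). The call ended without D51 5 (-0.67, adjusted p = 0.0513), without WT 2 (-0.63, adjusted p = 0.0588) and under library-size scaling (-0.32, adjusted p = 0.176).

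Vegfa, the main ligand of Kdr (chromosome 17, 46016993 to 46032369, reverse strand), was at 236, 118 and 146 CPM in D51 and at 291, 242 and 214 CPM in WT. D51 5 and D51 6 lay below every WT library, while D51 4 lay between WT 2 and WT 3. The log2 fold change was -0.58 (95% interval -1.14 to -0.02), and the gene was not called (edgeR adjusted p = 0.113). Without D51 4 it was -0.92 and called (adjusted p = 0.0121), and without D51 5 it was -0.37 (adjusted p = 0.295). Under library-size scaling it was -0.23 (adjusted p = 0.498). The authors' deposited table gives a log2 fold change of -0.61 and an adjusted p of 0.0208 for this gene.

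Angpt1, the activating ligand of Tek (chromosome 15, 42424723 to 42676977, reverse strand), was at 21.9, 23.1 and 18.6 CPM in D51 and at 26.0, 25.04 and 27.6 CPM in WT. Every D51 library lay below every WT library, by a smaller margin than for Tek. The log2 fold change was -0.30 (SE 0.107), which was not called (edgeR adjusted p = 0.0687) and turned to 0.06 under library-size scaling. The authors' deposited table has -0.33 with an adjusted p of 0.0137. The antisense gene Gm17473 shares 737 bases, 14.2% of the exon length of Angpt1, but held 2 to 11 counts in D51 and 1 to 8 in WT, against 359 to 529 and 385 to 470 counts of Angpt1.

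Angpt2, the context-dependent antagonist of Tek, and Vegfc, the ligand of Flt4, were the least abundant of the ligands. Angpt2 (chromosome 8, 18690263 to 18741562, reverse strand) was at 3.85, 2.80 and 4.21 CPM in D51 and at 4.98, 3.01 and 3.87 CPM in WT. These values rest on 64 to 90 counts in D51 libraries and 54 to 90 in WT libraries. The groups overlapped (log2 fold change -0.13, 95% interval -0.70 to 0.43, edgeR adjusted p = 0.725), and the direction changed with the scaling (0.21 by library size alone). Angpt2 lies within Mcph1 on the opposite strand, with 0 bases of shared exon. Vegfc (chromosome 8, 54077606 to 54187096, forward strand) was at 2.70, 2.67 and 1.66 CPM in D51 and at 2.60, 1.81 and 2.22 CPM in WT. It rests on 32 to 63 counts in D51 and 31 to 47 in WT, and its log2 fold change of 0.09 had a 95% interval of -0.51 to 0.69 (edgeR adjusted p = 0.823). Under library-size scaling it was 0.45 (adjusted p = 0.258). At this depth no change was detectable for Angpt2 or Vegfc, and both intervals span 0.

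**Figure D2:**
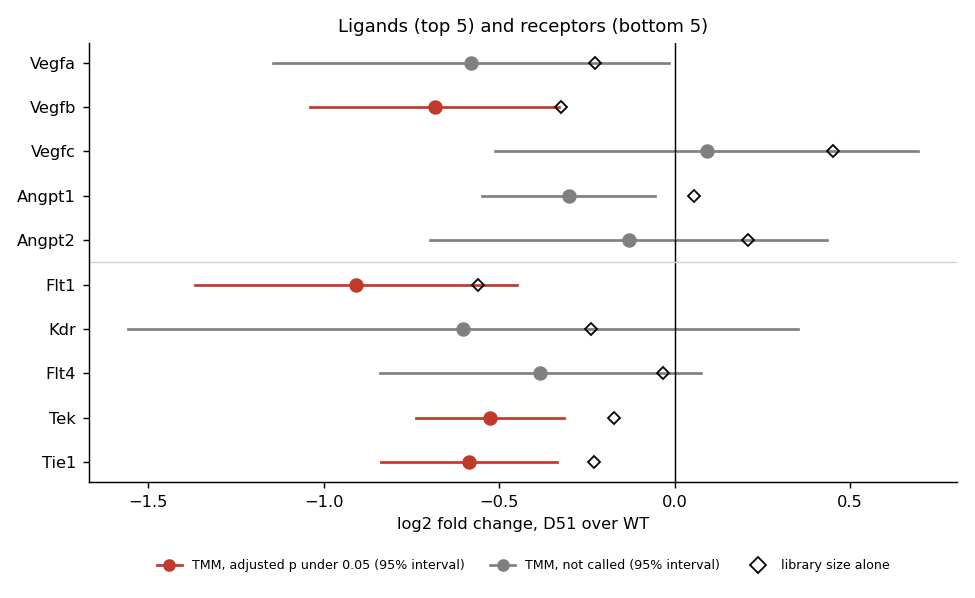
Log2 fold change of each gene, D51 over WT, with its 95% interval (circles, TMM scaling, red where called) and the value under library-size scaling (diamonds). Flt1, Tek, Tie1 and Vegfb are called, with values from -0.91 to -0.53, and every diamond lies to the right of its circle.

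The promoters of the 4 called genes are shown as a description, and regulation shared between these genes was not tested. Each run covers 250 bases before to 50 after the gene start in the direction of transcription, from RefSeq on GRCm38.p6: chr5:147725962-147726261 for Flt1, chr4:94739039-94739338 for Tek, chr4:118489800-118490099 for Tie1 and chr19:6987602-6987901 for Vegfb (forward strand for Tek, reverse for the others). For Tie1 the RefSeq start differs from the gene positions given above (118471191 to 118490061), and most of its window lies within them. Capitals mark matches on either strand to short motifs. For the core of the hypoxia response element these were ACGTG or, in its other common form, GCGTG. For ETS factors they were AGGAAG or the close variant CGGAAG. The Sp1 motif searched was GGGCGG, and that of GATA factors was AGATAA. Where matches touch, as in Vegfb, the capitals run together.
Flt1: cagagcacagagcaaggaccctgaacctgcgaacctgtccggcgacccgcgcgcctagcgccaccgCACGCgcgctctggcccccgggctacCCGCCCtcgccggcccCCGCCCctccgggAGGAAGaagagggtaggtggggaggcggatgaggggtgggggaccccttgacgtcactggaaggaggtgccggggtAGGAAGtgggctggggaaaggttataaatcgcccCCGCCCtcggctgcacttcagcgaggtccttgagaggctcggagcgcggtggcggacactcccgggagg
Tek: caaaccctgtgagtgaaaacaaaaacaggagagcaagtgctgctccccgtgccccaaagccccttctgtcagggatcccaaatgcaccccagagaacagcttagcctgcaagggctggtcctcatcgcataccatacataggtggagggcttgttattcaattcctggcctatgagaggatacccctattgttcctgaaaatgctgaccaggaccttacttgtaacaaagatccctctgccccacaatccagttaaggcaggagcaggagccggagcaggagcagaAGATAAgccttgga
Tie1: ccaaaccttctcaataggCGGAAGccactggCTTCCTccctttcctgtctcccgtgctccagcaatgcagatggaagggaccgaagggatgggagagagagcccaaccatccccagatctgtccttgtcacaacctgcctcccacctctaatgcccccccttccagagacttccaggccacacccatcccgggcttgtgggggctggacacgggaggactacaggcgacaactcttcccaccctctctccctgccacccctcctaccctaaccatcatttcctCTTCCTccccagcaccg
Vegfb: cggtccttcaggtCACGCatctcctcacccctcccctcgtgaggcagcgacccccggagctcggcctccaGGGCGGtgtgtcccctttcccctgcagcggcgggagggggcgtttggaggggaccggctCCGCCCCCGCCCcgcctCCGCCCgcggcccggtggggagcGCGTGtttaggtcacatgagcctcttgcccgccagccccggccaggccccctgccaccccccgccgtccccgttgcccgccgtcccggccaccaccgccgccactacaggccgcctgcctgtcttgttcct
Flt1 held 2 matches to AGGAAG, 3 to GGGCGG and 1 to GCGTG. Tie1 held 2 matches to AGGAAG and 1 to CGGAAG, while Tek held a single AGATAA match, 36 bases past the start. Vegfb held 4 matches to GGGCGG and 2 to GCGTG. None of the 4 windows held ACGTG. Among 32817 promoter windows of the same length, 35.4% held AGGAAG, 16.9% CGGAAG, 35.6% GGGCGG, 32.4% GCGTG, 19.6% ACGTG and 11.2% AGATAA. A match describes these letters only. No motif searched was present in all 4 windows.

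Scaled also by exon length (RPKM, per kilobase), the 10 genes fell into the same broad order in both genotypes. Vegfa and Vegfb led, at 38.8 ± 14.4 and 37.9 ± 6.55 RPKM in D51 and at 58.1 ± 9.14 and 60.9 ± 8.88 RPKM in WT (SD, n = 3 each), and their libraries overlapped in both groups. Flt1 followed at 8.11 ± 0.863 RPKM in D51 and 15.2 ± 4.28 RPKM in WT. Its libraries lay below those of Vegfa and Vegfb in both genotypes. They did not overlap those of Tie1 in D51, whereas in WT they did. Tie1 averaged 6.77 ± 0.647 RPKM in D51 and 10.2 ± 0.957 RPKM in WT, and Tek 6.02 ± 0.318 and 8.67 ± 0.611 RPKM. Kdr, at 4.98 ± 2.58 RPKM in D51 and 7.56 ± 3.80 RPKM in WT, overlapped Tek in both. Angpt1 was at 4.08 ± 0.447 RPKM in D51 and 5.03 ± 0.246 RPKM in WT. Flt4, Angpt2 and Vegfc came last, with means of 0.956 to 1.07 RPKM in D51 and 0.902 to 1.39 RPKM in WT, and neighbours among them overlapped in both genotypes.

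**Figure D3:**
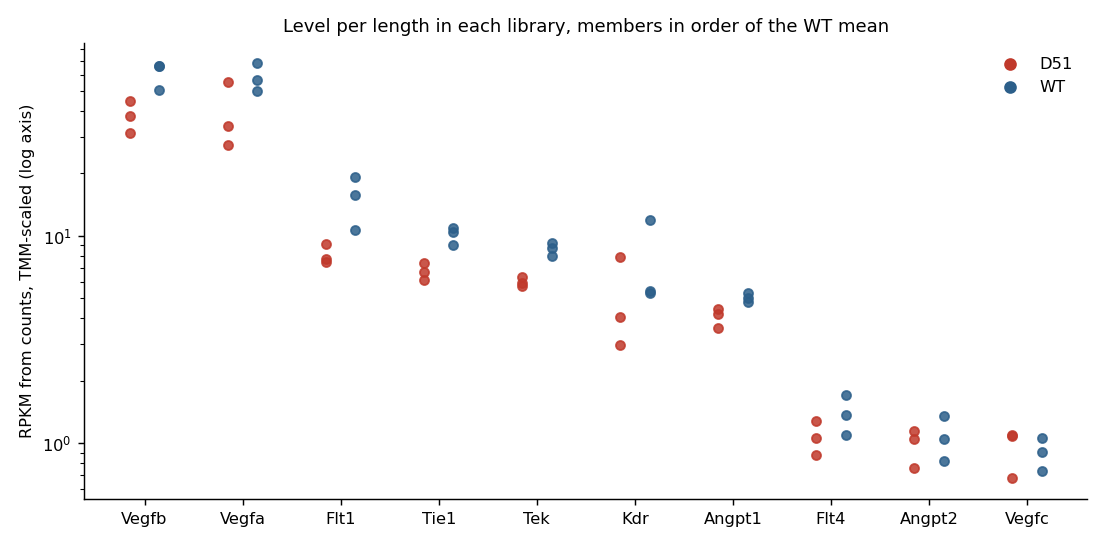
TMM-scaled RPKM, a level per kilobase of exon (log axis), in each D51 library (red) and WT library (blue), with the genes in order of their WT mean. The 2 VEGF ligands Vegfb and Vegfa sit above all receptors, and Flt4, Angpt2 and Vegfc lie between 0.679 and 1.71 RPKM.

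Ratios within a library do not depend on the library scaling, so they were compared between genotypes by exact two-sided permutation tests, for which 0.1 is the smallest p that 3 against 3 libraries allow. A family of 14 values was tested, 4 ratios between genes and each gene against the mean log2 level per length of 19 endothelial markers. The ratio of Angpt2 to Angpt1 was 0.249, 0.172 and 0.320 in D51 and 0.271, 0.171 and 0.199 in WT (exact permutation p = 0.6, adjusted p = 0.84). The ratio of Vegfa to Vegfb was 1.24, 0.726 and 1.08 in D51 and 1.03, 0.852 and 0.984 in WT (exact permutation p = 0.8, adjusted p = 0.862). The groups overlapped in both ratios. The ratio of Tie1 to Tek stayed within a narrow range, at 1.14, 1.17 and 1.07 in D51 and 1.13, 1.25 and 1.13 in WT (exact permutation p = 0.6, adjusted p = 0.84).

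The ratio of Flt1 to Kdr split the libraries across genotypes. It was 0.952, 1.90 and 3.05 in D51 and 0.893, 3.52 and 2.98 in WT (exact permutation p = 0.8, adjusted p = 0.862). D51 4 and WT 1 were thus the libraries with less Flt1 than Kdr per length, and in the other 4 libraries Flt1 exceeded Kdr.

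Of the 19 endothelial markers, 7 were called lower in D51 muscle and 0 higher, against 11.9% lower and 16.1% higher of all genes tested. Among the 19 markers, 17 had a log2 fold change below 0 (median of the 19 -0.34, against -0.01 for all genes tested). Their summed level was 431 to 511 CPM in D51 and 559 to 620 CPM in WT. Under library-size scaling 0 of 19 were called and their median was 0.01, against 0.34 for all genes tested. Of all 14335 genes, that scaling called 334 lower and 5394 higher. Each gene was set against the mean log2 level of these markers in the same library, and the result is given as a ratio. Tek was at 1.25, 1.22 and 1.38 in D51 and at 1.56, 1.42 and 1.41 in WT. Tie1 was at 1.42, 1.42 and 1.47 in D51 and at 1.76, 1.78 and 1.596 in WT. For both receptors every D51 value lay below every WT value (log2 difference -0.20 for Tek and -0.26 for Tie1, exact permutation p = 0.1 for each, the smallest possible, adjusted p = 0.56). Flt1 was at 1.58, 1.47 and 2.17 in D51 and at 1.80, 3.12 and 2.78 in WT on this scale, with an overlap between D51 6 and WT 1 (log2 difference -0.54, exact permutation p = 0.2, adjusted p = 0.56). The corresponding difference of Kdr was -0.29 (exact permutation p = 0.5, adjusted p = 0.84). Over the other genes it ranged from -0.36 for Vegfb to 0.39 for Vegfc, and for these the groups overlapped.

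**Figure D4:**
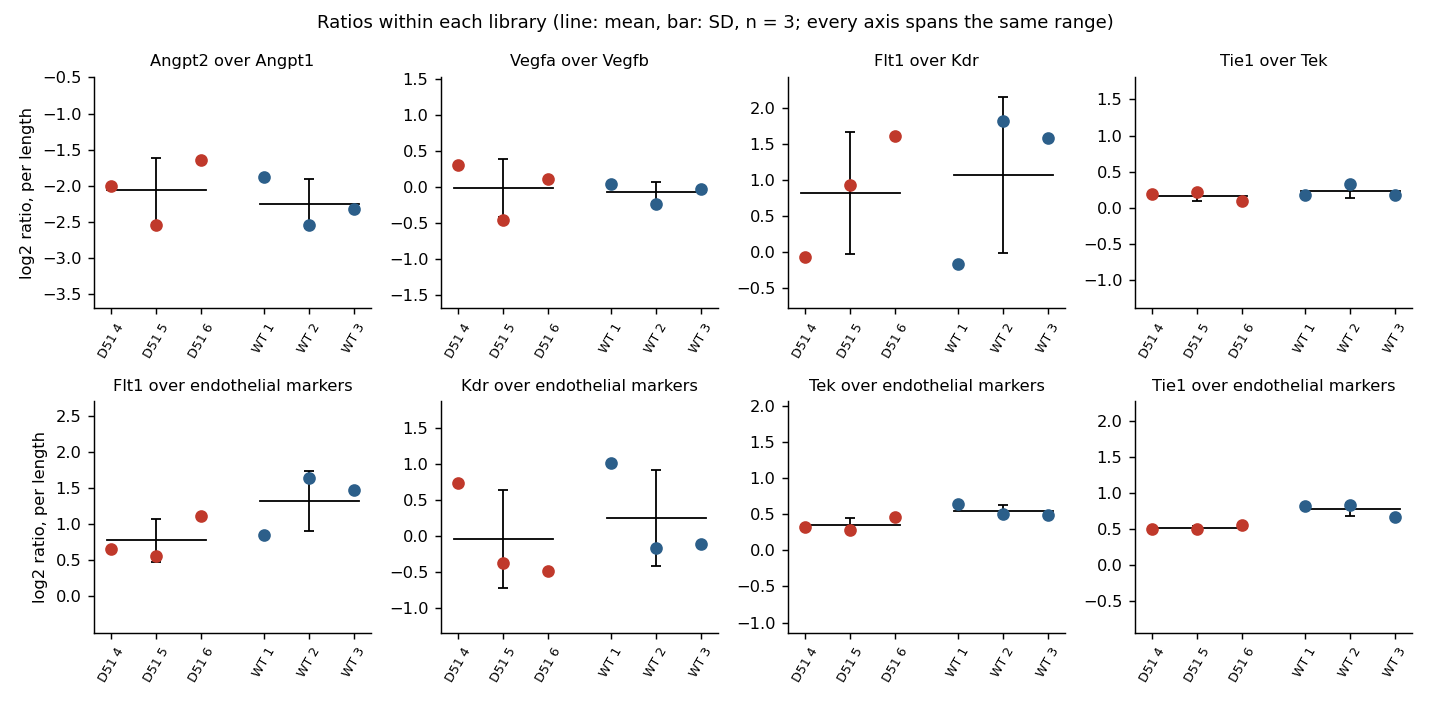
Log2 ratios per length in each D51 and WT library, with the mean as a line and the SD as a bar; every panel spans the same range of log2 units. The ratio of Flt1 to Kdr is low in D51 4 and WT 1, and Tek and Tie1 against endothelial markers are lower in all 3 D51 libraries than in any WT library.

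Markers of other cell types gave calls in different numbers, beside 16.1% higher and 11.9% lower of all genes tested. Pericyte and smooth muscle markers had 5 of 11 lower and 0 higher (summed level 1060 to 1237 CPM in D51, 1610 to 1754 CPM in WT), and none of the 11 was at 0. Under library-size scaling 2 of these 11 were lower and 1 higher. Macrophage markers had 12 of 12 higher (644 to 1365 CPM in D51, 86.8 to 167 CPM in WT), and fibro-adipogenic progenitor markers 4 of 8 higher (928 to 1168 CPM in D51, 657 to 877 CPM in WT). Under library-size scaling these counts were 12 of 12 and 7 of 8. That scaling called 5394 of all 14335 genes higher and 334 lower. Lymphatic markers had 1 of 6 higher and 0 lower (40.3 to 46.1 CPM in D51, 26.0 to 34.7 CPM in WT). The called marker was Pdpn, named after its values were seen, and without it the sums overlapped (20.7 to 33.1 CPM in D51, 21.9 to 28.2 CPM in WT). Blood cell markers had 3 of 5 lower (59.9 to 98.6 CPM in D51, 105 to 175 CPM in WT), and adipocyte markers 0 of 5 called (5.05 to 17.5 CPM in D51, 9.64 to 13.4 CPM in WT). Under library-size scaling 0 of 5 blood cell markers were called. The slow fibre markers had 3 of 5 higher and 1 lower (46.5 to 96.4 CPM in D51, 14.9 to 31.8 CPM in WT). The part of these cell types in the values of the VEGF and angiopoietin genes was not tested.

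Partners of the receptors gave calls in both directions, beside 16.1% higher and 11.9% lower of all genes tested. Of 7 tested genes among other VEGF-family ligands, co-receptors and Tie partners, 1 was higher and 2 were lower (median log2 fold change 0.16). Under library-size scaling 2 were higher and 0 lower, against 5394 higher and 334 lower of all 14335 genes. Ptprb, the endothelial phosphatase that acts on Tek, was at 162 ± 29.3 CPM in D51 and 245 ± 33.8 CPM in WT (-0.60, edgeR adjusted p = 0.0256). Cdh5, the VE-cadherin that holds endothelial cells together and associates with Kdr, was at 133 ± 16.2 CPM in D51 and 179 ± 10.9 CPM in WT (-0.43, edgeR adjusted p = 0.0240). Leaving out D51 4, D51 5, WT 2 or WT 3 ended the call of Ptprb and leaving out D51 4, WT 1 or WT 2 that of Cdh5, with values of -0.74 to -0.47 and -0.51 to -0.35 over single omissions. Library-size scaling ended both calls (-0.25 and -0.07). Sdc2, a cell-surface heparan sulphate proteoglycan, was at 45.0 ± 2.01 CPM in D51 and 27.4 ± 3.59 CPM in WT (0.72, edgeR adjusted p = 0.00347). The neuropilins Nrp1 (-0.08) and Nrp2 (0.53) and the ligands Pgf (0.16) and Vegfd (0.21) were not called.

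The lists of VEGF-C processing genes and of antagonists and matrix regulators held 5 calls between them. Of all genes tested, 16.1% were higher and 11.9% lower. Of 7 VEGF-C processing genes, 2 were higher and 0 lower (median 0.62): the procollagen proteinases Adamts14 (5.46 ± 0.857 CPM in D51, 1.76 ± 0.457 CPM in WT, log2 fold change 1.64, edgeR adjusted p = 0.00301) and Adamts2 (0.67, edgeR adjusted p = 0.0230). The call of Adamts2 ended without D51 4, and its values over single omissions were 0.48 to 0.78. Ccbe1 (0.95) and Adamts3 (-0.00), whose products present or cleave VEGF-C, were not called. Under library-size scaling 6 of the 7 were higher (median 0.97), Ccbe1 among them at 1.29. That scaling called 5394 of all 14335 genes higher and 334 lower (median 0.34). Of 9 antagonists and matrix regulators tested, 3 were higher and 0 lower (median 0.42), and under library-size scaling 5 were higher and 0 lower (median 0.77). Vash2, a vasohibin known to promote vessel growth, unlike its relative Vash1 (0.01, not called), rose to 14.5 ± 0.936 CPM in D51, against 2.47 ± 1.26 CPM in WT (2.54, edgeR adjusted p = 0.00116). Sema3a, a neuropilin ligand, was called at 1.07, as was Thbs1, the anti-angiogenic thrombospondin 1, at 1.58. The groups overlapped for Thbs1, at 71.3, 68.7 and 26.0 CPM in D51 and 29.0, 11.1 and 15.4 CPM in WT. Thbs1 was named to complete the count, after its values were seen. Leaving out D51 4, D51 5, WT 2 or WT 3 ended each of these 2 calls, with values of 0.84 to 1.51 for Sema3a and 1.30 to 2.06 for Thbs1.

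Of 15 upstream regulators of Vegfa tested, 5 were lower and 1 was higher (median -0.32), against 11.9% lower and 16.1% higher of all genes tested. Under library-size scaling 3 were lower and 4 higher (median 0.02), against 334 lower and 5394 higher of all 14335 genes (median 0.34). Egln1, the oxygen-sensing prolyl hydroxylase that marks HIF proteins for degradation, was at 211 ± 7.82 CPM in D51 and 370 ± 15.6 CPM in WT (-0.81, edgeR adjusted p = 0.00107). Esrra, the nuclear receptor that works with PGC-1alpha on Vegfa in muscle, was at 48.1 ± 2.82 CPM in D51 and 82.7 ± 9.98 CPM in WT (-0.78, edgeR adjusted p = 0.00245). Epas1, which encodes HIF-2alpha, was at 221 ± 14.2 CPM in D51 and 377 ± 43.1 CPM in WT (-0.77, edgeR adjusted p = 0.00294). These 3 calls held with any single library left out and under library-size scaling, where the values were -0.46, -0.43 and -0.42.

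Ppargc1a, the PGC-1alpha co-activator gene (-0.45), and Hif1an, which inhibits HIF transcriptional activity (-0.42), were the other two lower genes, with calls that ended under library-size scaling (-0.09 and -0.08). Single omissions gave -0.57 to -0.36 for Ppargc1a, whose call ended without D51 5, D51 6, WT 2 or WT 3. They gave -0.56 to -0.34 for Hif1an, which lost its call without any library except D51 6. Epas1, Ppargc1a and Hif1an were named to complete the count, after their values were seen. Hif1a was higher, at 45.7 ± 5.94 CPM in D51 and 32.1 ± 3.25 CPM in WT (0.51, edgeR adjusted p = 0.0180), and lost its call without D51 4 or WT 2 (range over single omissions 0.41 to 0.59).

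Of 14 endothelial response genes, 1 was higher and 1 lower (median 0.13), against 16.1% higher and 11.9% lower of all genes tested. Under library-size scaling 4 of the 14 were higher and 1 lower (median 0.48). That scaling called 5394 of all 14335 genes higher and 334 lower (median 0.34). Dll4, the Notch ligand that VEGF induces in sprouting endothelium, was at 7.67 ± 0.208 CPM in D51 and 14.1 ± 2.30 CPM in WT (-0.88, edgeR adjusted p = 0.00402), and -0.53 and still called under library-size scaling. Flrt2 was higher (0.73, edgeR adjusted p = 0.0102). Of 15 hypoxia response genes, 0 were higher and 2 lower (median -0.13): Pdk1, which restrains pyruvate oxidation (-0.47, edgeR adjusted p = 0.00574), and Vldlr, a lipoprotein receptor (-0.69, edgeR adjusted p = 0.0371). Under library-size scaling 5 of the 15 were called higher and 0 lower, and their median was 0.22, against 0.34 for all genes. Vldlr kept its call in 1 of the 6 single omissions, without D51 6, with values of -0.96 to -0.51.

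Of 15 receptor-proximal adaptor genes, 4 were higher and 2 lower (median 0.09), against 16.1% higher and 11.9% lower of all genes tested. Shc1 (0.52, edgeR adjusted p = 0.00940) and the Src-family kinase Fyn (0.68, edgeR adjusted p = 0.0120) rose, as did Src (0.93) and Dok2 (1.49), a docking protein that binds Tek and is also expressed in blood cells, the last 2 named to complete the count, after their values were seen. Under library-size scaling 7 of the 15 were higher and 0 lower, against 5394 higher and 334 lower of all 14335 genes. Without WT 2 the calls of Fyn (0.56 to 0.82 over single omissions), Src (0.74 to 1.11) and Dok2 (1.22 to 1.71) ended, and without D51 5 that of Src. Ptpn11, the phosphatase SHP2, was at 161 ± 6.67 CPM in D51 and 213 ± 11.6 CPM in WT (-0.41, edgeR adjusted p = 0.0122), and the docking protein gene Gab1 was at 25.5 ± 3.94 and 34.5 ± 3.19 CPM (-0.44, edgeR adjusted p = 0.0424). Both of these lower calls ended under library-size scaling (-0.06 and -0.09) and without WT 2, and that of Gab1 also without D51 4, D51 5 or WT 3 (-0.46 to -0.38 and -0.52 to -0.31 over single omissions).

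**Figure D5:**
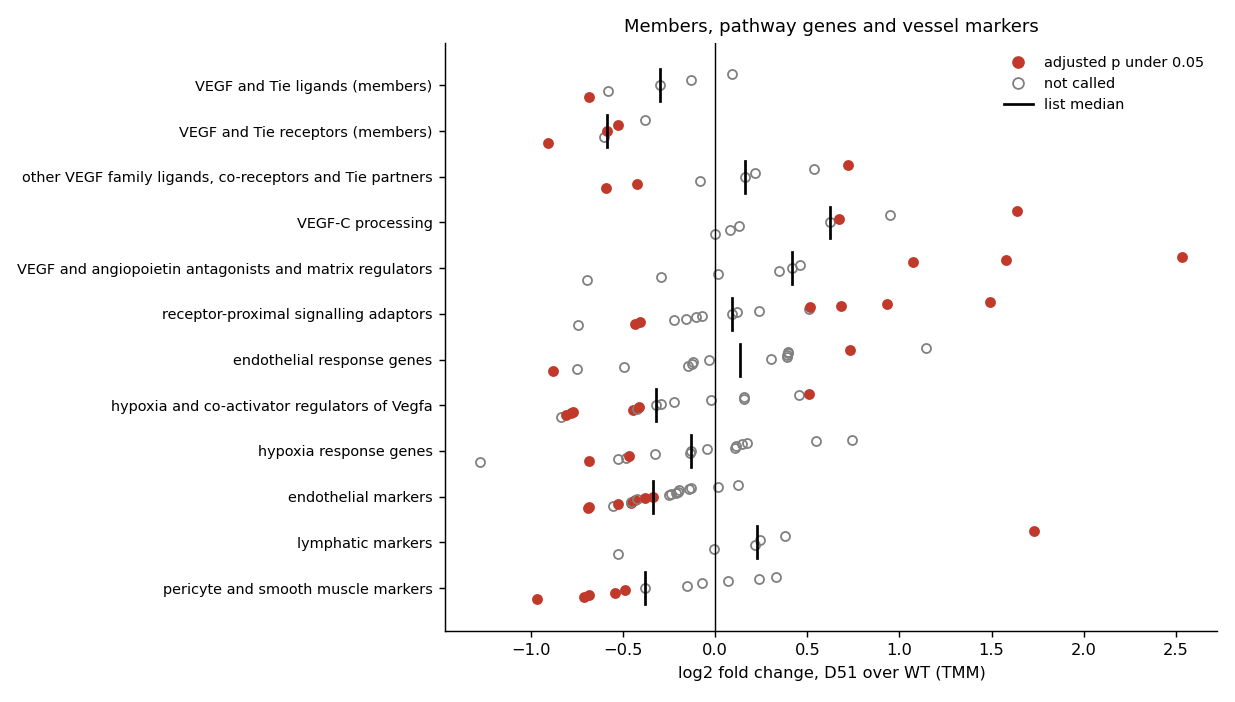
Log2 fold change (D51 over WT, TMM scaling) of each tested gene by list, filled red where called, with the list median as a black bar. Receptors lie at or below -0.38, and endothelial markers have a median of -0.34, against -0.01 for all genes tested. Under library-size scaling, not drawn here, these 2 medians are 0.01 and 0.34. The called genes of the VEGF-C processing and antagonist lists lie above 0.

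The genes whose log2 CPM followed Kdr most closely over the 6 libraries were Pdgfb, Hexim1, Vtn, Arfgap1 and Icam2, with Pearson r of 0.980 to 0.988. Pdgfb, which encodes the platelet-derived growth factor that endothelium sends to pericytes, was at 26.3, 19.5 and 17.3 CPM in D51 and 31.5, 20.9 and 20.7 CPM in WT, and thus also highest in D51 4 and WT 1. Vegfa was followed most closely by Prkg1, Efcab5, Hoxa11, Gm26724 and Mypop (r of 0.986 to 0.994). Prkg1, a cGMP-dependent protein kinase gene, was at 35.9, 15.4 and 19.0 CPM in D51 and 44.1, 36.7 and 34.4 CPM in WT. None of these 10 genes was called. These r values are the top 5 of 14334 for each gene over only 6 libraries and describe these libraries alone. Among the 10 VEGF and angiopoietin genes, Tek and Tie1 had the highest correlation (r = 0.982), and Kdr with Flt1 had r = 0.0461. These points share their libraries and the genotype difference.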

How the data were processed

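Gene expression was measured in 3 D51 and 3 WT libraries. The authors deposited raw read counts for 54232 genes with exon lengths. Per the submitters' processing notes, featureCounts 1.6.0, FastQC 0.11.4, edgeR 3.30.1 and build GRCm38 (mm10) were used; the aligner, strand setting and annotation release were not given in any source used here. The authors' deposited RPKM values cover 13958 genes and lie above 0 for 140 of 141 zero counts, by a step not given. The authors' deposited comparison holds log2 fold changes and log2 CPM, a likelihood-ratio score, p-values, adjusted p-values and the −log10 of p, per the file headers.

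Counts were tested with edgeR 4.0.16 in R 4.3.3 (TMM, default filter by group, quasi-likelihood F-test, two-sided, Benjamini-Hochberg over 14335 genes), and the test was tried on simulated data. SE is the fold change divided by the square root of F, and intervals are 95%. Ratios used exon lengths and 0.5 added to each count. GENCODE M21, which supplied the positions, holds 54079 of the IDs, and all 10 members have the same exon length there. Of the members, 8 matched the RefSeq promoter table. Alternatives used limma 3.58.1 and DESeq2 1.42.0. Libraries of a genotype differed by more than counting noise (chi-square per degree of freedom 8.08 to 42.9). Members and lists were chosen with earlier results of these data known. Named genes were the members, Dmd, at most 2 called genes per list and direction with the smallest adjusted p, and the 5 most like Kdr and the 5 most like Vegfa. Outside this rule, and after their values were seen, the text names Thbs1, Dok2, Src, Epas1, Ppargc1a, Hif1an and Pdpn to complete counts, and the uncalled Nrp1, Nrp2, Pgf, Vegfd, Ccbe1, Adamts3 and Vash1. Lists were described without set tests.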

Additional observations from a re-analysis of the deposited data

How the results depend on the processing

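Of the 10 genes, 4 were called lower in the reported fit. The count was also 4 with RLE size factors, mitochondrial genes left out, or at least 1 CPM required in 3 libraries. Limma-voom, DESeq2 and the likelihood-ratio test of edgeR gave 4 as well. In these settings all genes gave 2158 to 2509 higher and 1636 to 1860 lower calls. With no filter 5 members were lower, Vegfa among them (edgeR adjusted p = 0.00686), with 2870 higher and 1772 lower genes. The count was 1 under library-size scaling (with 5394 genes called higher and 334 lower over all genes) and 0 with limma on the deposited RPKM plus 0.1 (5222 higher and 309 lower) or plus 1 (5071 and 308). It was 2 to 5 with a single library left out, where all genes gave 1346 to 2662 higher and 663 to 2157 lower calls. With both libraries of described number 1 left out, chosen after seeing the data, 6 members were lower, among 1440 higher and 686 lower genes. The deposited comparison of 13958 genes gives 6 of the members an adjusted p under 0.05, and its calls over all genes were not counted here. D51 and WT libraries with the same described number had deviation correlations of 0.352 (D51 4 with WT 1), -0.01 and 0.0562. The pairs with different numbers ranged from -0.216 to 0.152. Whether the described numbers pair the samples was not tested. With the number as a replicate block, 6 members were lower, among 2508 higher and 1960 lower genes. The members added were Vegfa (-0.63, edgeR adjusted p = 0.0169) and Kdr (-0.61, edgeR adjusted p = 0.00470). Angpt1 turned to 0.055, 0.040 and 0.036, and Angpt2 to 0.21, 0.21 and 0.11, under library-size scaling and RPKM plus 0.1 and plus 1. Angpt2 was 0.026 without both number-1 libraries. Single omissions gave -0.305 to 0.0697 for Angpt2 and -0.0469 to 0.278 for Vegfc. For log2 ratios they gave -0.0215 to 0.427 for Angpt2 over Angpt1, -0.105 to 0.280 for Vegfa over Vegfb and -0.874 to 0.192 for Flt1 over Kdr. Over endothelial markers they gave -0.0386 to 0.0845 for Angpt1, -0.675 to 0.0962 for Kdr and -0.177 to 0.170 for Flt4. The cause of these shifts was not tested.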
